A study of Saccharomyces cerevisiae with 4 samples.

Results

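Mitochondria translate the few messages of their own genome on a dedicated ribosome, whose ribosomal RNAs are made inside the organelle and whose proteins, with 1 exception in yeast, are encoded in the nucleus, made in the cytosol and imported. The genes described here are the nuclear genes for proteins of this ribosome whose symbol is MRPL or MRPS followed by a number. Probe sets annotated to exactly 1 such symbol were taken, with the highest mean deciding between probe sets of the same gene, which gave 43 of the 5656 genes tested, 34 of the large subunit (MRPL) and 9 of the small subunit (MRPS). All 43 matched a locus tag in RefSeq, on 12 chromosomes, and no 2 of them were neighbours. In baker's yeast these proteins are needed for respiration and for keeping the mitochondrial genome, but not for growth on glucose by fermentation.

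Expression was measured with Affymetrix yeast arrays in total RNA of exponentially growing Saccharomyces cerevisiae. The groups were wild type SEY6210 (2 arrays) and a pmt1 pmt2 mutant made in SEY6210 (2 arrays), each array from its own biological sample according to the design text. The products of PMT1 and PMT2 are enzymes of the endoplasmic reticulum that start protein O-mannosylation, and what was done to either gene, and which other markers the strains carry, are not given in the sources used. These genes checked the labels: PMT1 gave 1177.7 and 808.7 in wild type but 111.4 and 103.8 in pmt1 pmt2, and PMT2 signals were 2645.5 and 2770.8 against 11.9 and 15.5.

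Array medians ran from 54.4 to 66.1 in linear signal units. The arrays numbered 1 differed from those numbered 2 in their controls: the actin control for the 3′ end of the message was 2.99 and 3.15 times as bright as that for the 5′ end on number 1, and 1.38 and 1.32 times on number 2. The geometric mean of 9 hybridisation spike probe sets was 609 and 610 against 267 and 361. The labels do not say what the numbers stand for, so differences are also given within each number. Background was set at 26.2, the brightest of 19 probe sets for sequences of bacteria and mouse. Every member exceeded it on at least 1 array, and MRPS5 and MRPL50 were the only ones at or below it on any. In RNA of a whole culture, fewer cells holding a transcript and less of it per cell cannot be told apart.

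Transcripts for the mitochondrial ribosome were modestly lower in pmt1 pmt2 across most of the family, although no single member passed the test. Of the 43 members, 38 had a log2 change (pmt1 pmt2 minus wild type) below 0, against 47.5% of all genes. The median log2 change of the members was −0.51, a 1.43-fold lower signal, and that of all genes was 0.027. The members ran from −1.15 (MRPL19) to 0.21 (MRPS12), and their quartiles were −0.65 and −0.15, where those of all genes were −0.26 and 0.34. A log2 change under −0.5 was found for 22 members and for 11.9% of all genes.

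Single members were tested with limma across all 5656 genes. None of the 43 reached an adjusted p under 0.05 (0 called, where 0.389% of all genes were), and their adjusted p lay between 0.593 and 0.996. At limma's unadjusted p under 0.05 the count was 1 lower member, MRPL24, and 0 higher, against 1.8% and 5.37% of all genes. In 21 members both pmt1 pmt2 arrays lay below both wild type arrays, which held for 14.7% of all genes. In 0 members were both above, which held for 18.5% of all genes. The other 22 members had overlapping groups. An exact permutation test with 2 arrays a group has p = 0.333 as its smallest value, and the standard errors of the members' log2 changes ran from 0.34 to 0.80 with a median of 0.37.

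**Figure D1:**
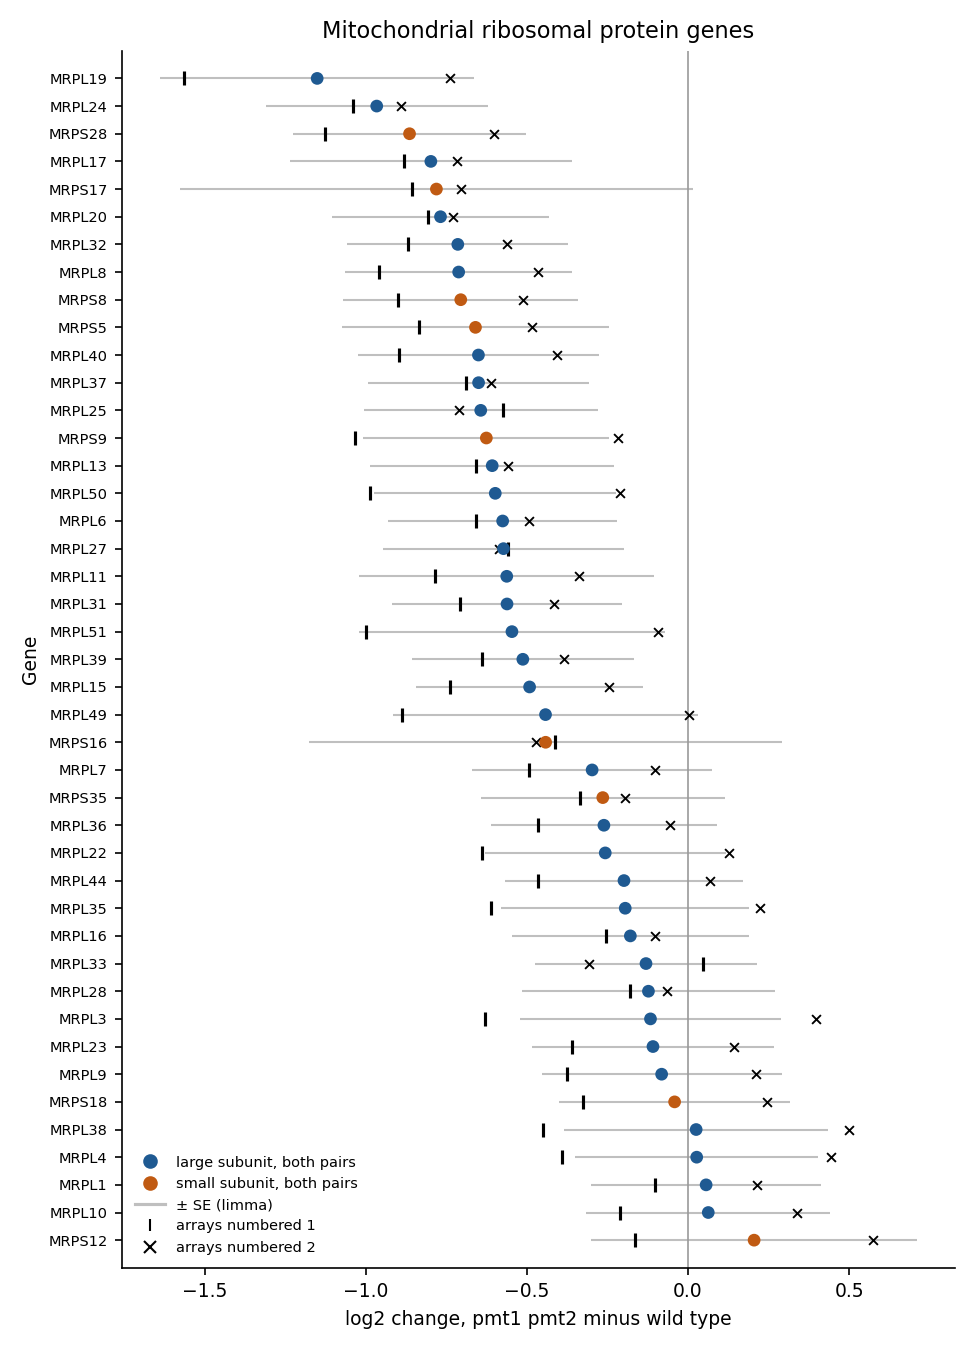
The log2 change (pmt1 pmt2 minus wild type) of each of the 43 members, ordered from lowest to highest, as a point with its standard error from limma (bar), and within the arrays numbered 1 (tick) and 2 (cross). Blue points are large subunit genes and orange points small subunit genes, and 38 of the 43 points lie left of 0.

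The 6 members with the lowest log2 changes came from both subunits. MRPL19 encodes the mitochondrial relative of the stalk base protein uL11. Its signals were 190.3 and 243.2 in wild type against 64.4 and 145.7 in pmt1 pmt2, so the groups did not overlap but the mutant arrays lay far apart. The difference was 2.22-fold (log2 change −1.15 ± 0.49 (SE), limma adjusted p = 0.726). MRPL24, for the relative of bL28, measured 83.1 and 87.6 in wild type against 40.4 and 47.2 in pmt1 pmt2. Its arrays were close together within each group and well apart between them. This gave a 1.95-fold difference (log2 change −0.97 ± 0.34 (SE), limma adjusted p = 0.593), the smallest p of the family. Within the array numbers the log2 changes were −1.56 and −0.74 for MRPL19 and −1.04 and −0.89 for MRPL24. A fit with the array number as a block gave them limma adjusted p = 0.0979 and 0.104. Only the block with centred arrays, chosen after seeing the data, took them under the threshold (limma adjusted p = 0.0383 and 0.0434). In that fit 2.14% of all genes passed as lower.

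MRPS28, for the relative of the small subunit protein uS15, which binds the ribosomal RNA early in assembly in bacteria, measured 263.1 and 191 in wild type against 120.6 and 125.7 in pmt1 pmt2. Both mutant arrays were lower, and the wild type arrays spread more widely than the mutant ones (1.82-fold, log2 change −0.86 ± 0.36 (SE), limma adjusted p = 0.723). MRPL20, for the mitochondria-specific protein mL58, measured 306.7 and 296.5 against 175.1 and 179. Replicates of MRPL20 nearly coincided in both groups (1.70-fold, log2 change −0.77 ± 0.34 (SE), limma adjusted p = 0.764).

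MRPL17, for the mitochondria-specific protein mL46, measured 257.5 and 151 in wild type against 139.9 and 91.9 in pmt1 pmt2. The array numbered 1 was the brighter of each group, and the groups did not overlap (log2 change −0.80 ± 0.44 (SE), limma adjusted p = 0.886). MRPS17, for the relative of uS17, measured 317 and 87.7 against 175 and 53.8. Here the arrays numbered 1 were 3.61-fold (wild type) and 3.25-fold (pmt1 pmt2) above those numbered 2, more than the difference between the groups, and the groups overlapped (log2 change −0.78 ± 0.80 (SE), limma adjusted p = 0.994). Within the numbers the log2 change of MRPS17 was −0.86 and −0.70. Its sign turned in 2 of the 4 fits without 1 array, which leave the groups unequal in array number, to 0.070 without pmt1 pmt2 array 2 and 0.15 without wild type array 1.

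At the other end, 5 members had a log2 change above 0. MRPS12, for the relative of the decoding-centre protein uS12, measured 363.9 and 509.3 in wild type against 324.9 and 758 in pmt1 pmt2. Its wild type arrays lay between the mutant ones (log2 change 0.21 ± 0.51 (SE), limma adjusted p = 0.994). MRPL10, for the relative of uL15, measured 179.7 and 186.6 against 155.2 and 235.7, and MRPL1, for the relative of the L1 stalk protein, 135.8 and 143 against 126.6 and 165.8. Both had the same layout, with the wild type pair inside the range of the mutant pair.

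MRPL4, for the relative of uL29, measured 272.3 and 204.1 in wild type against 207.8 and 277.6 in pmt1 pmt2. MRPL38, for the relative of uL14, measured 239.5 and 138.2 against 175.4 and 195.4. The groups of MRPL4 covered nearly the same range, and the mutant arrays of MRPL38 lay between its wild type arrays. The log2 changes of MRPL10, MRPL1, MRPL4 and MRPL38 were 0.063, 0.056, 0.027 and 0.025. Each was smaller than its standard error (0.36 to 0.41), so no direction is given for them. Centring the arrays, which moves all genes by the same amount, put them between −0.068 and −0.030. Several members below 0, among them MRPS17, MRPL49 and MRPS16, also had a change smaller than its standard error. The counts of members below 0 therefore go by sign alone.

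**Figure D2:**
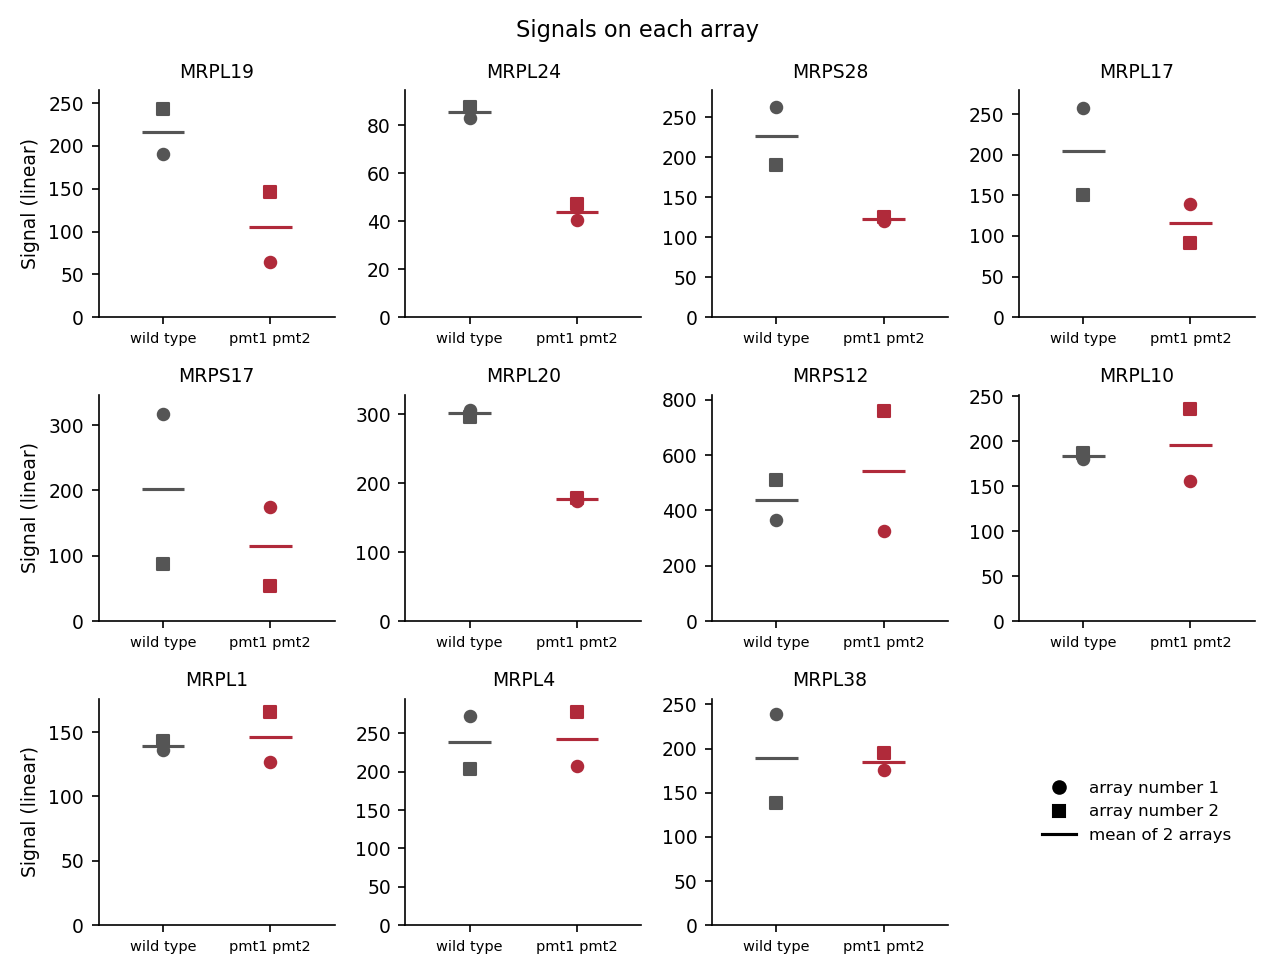
Linear deposited signal of the 6 members with the lowest and the 5 with a positive log2 change on each array (circles, arrays numbered 1; squares, arrays numbered 2), with a line at the mean of each group of 2 and each vertical axis starting at 0. MRPL20 and MRPL24 show tight, separate groups, MRPS17 shows a larger gap between the array numbers than between the groups, and MRPS12 has its wild type arrays between the mutant ones.

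The difference between groups was present within each array number and larger on the arrays numbered 1. The median log2 change of the members was −0.64 within number 1 and −0.24 within number 2. The median of all genes also moved, from −0.15 to 0.21. Relative to it the members lay at −0.49 and −0.46. Within number 1, 42 members were lower in pmt1 pmt2 and within number 2, 30 were. Of the 43, 29 were lower within both numbers (31% of all genes were) and 0 were higher within both (31.9% of all genes were). Another 13 were lower only within number 1, and MRPL33, for the relative of uL30, only within number 2. Below the median of all genes within both numbers lay 34 members and 35.9% of all genes. Members are no independent replicates; across the 43, log2 changes in number 1 and number 2 correlated at r = 0.59. The 2 numbers share no array, but members share the arrays within each number, and over all genes r was 0.63.

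**Figure D3:**
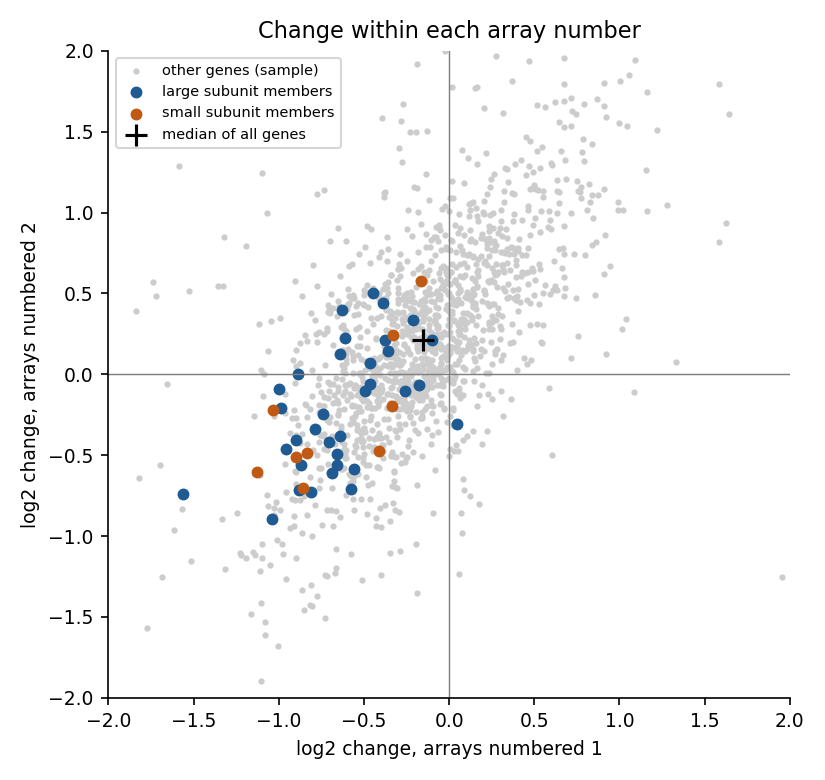
Log2 change (pmt1 pmt2 minus wild type) within the arrays numbered 1 (horizontal axis) against that within the arrays numbered 2 (vertical axis). Points are the 34 large subunit members (blue), the 9 small subunit members (orange) and a random sample of other genes (grey). Both axes end at 2, and 1434 of the 1500 sampled genes are drawn. The cross marks the median of all genes at −0.15 and 0.21; 34 members lie below it on both axes and none is above 0 on both.

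The lower signals were spread over both subunits. The 34 large subunit members had a median log2 change of −0.50, with 30 below 0 and 17 with all pmt1 pmt2 arrays below wild type. The 9 small subunit members had a median of −0.63, with 8 below 0 and 4 with all pmt1 pmt2 arrays below wild type. Of all genes, 47.5% lay below 0 and 14.7% had all pmt1 pmt2 arrays below wild type. The small subunit median rested on the arrays more than the large one: leaving out wild type array 1 took it to −0.29, and leaving out wild type array 2 took it to −0.94. RefSeq lists for each member a systematic ribosomal name, which separates proteins shared with bacterial ribosomes (prefix u or b) from those found only in mitochondria (prefix m). The 29 members with shared names had a median log2 change of −0.44 and the 14 with mitochondria-specific names −0.55. All 14 of the latter lay below 0 and the 5 positive members all had shared names. This split was made after the values were seen, and the difference between the classes was not tested.

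Among the other small subunit genes, MRPS8 (uS8) measured 192.1 and 138.3 in wild type against 103 and 97 in pmt1 pmt2, and MRPS9 (uS9) 248.6 and 210.3 against 121.4 and 180.8. In both genes the groups did not overlap. MRPS5 (uS5) measured 51.2 and 30.5 against 28.7 and 21.8, with a mutant mean below background. With values under background raised to it, the difference of MRPS5 was 1.44-fold, an estimate and not a lower bound. MRPS16 (bS16) repeated the layout of MRPS17, with 743.6 and 249 in wild type against 558.9 and 179.5 in pmt1 pmt2, so that the arrays numbered 1 were 2.99-fold and 3.11-fold above those numbered 2. Its log2 change within the numbers was −0.41 and −0.47. MRPS35 (mS45) and MRPS18 (uS11) had overlapping groups and log2 changes of −0.26 and −0.042.

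In the large subunit, log2 changes are given next for genes of some parts of the particle, and differences between these genes were not tested. Of the stalk proteins, which in bacteria bring elongation factors to the ribosome, MRPL19 is described above and MRPL11 (uL10) measured 203.4 and 104.8 in wild type against 118 and 82.8 in pmt1 pmt2, with overlapping groups (log2 change −0.56). Around the exit of the peptide tunnel, MRPL40 (uL24) measured 150.9 and 158.4 against 81.1 and 119.6, without overlap, and had a log2 change of −0.65. MRPL22 (uL22) measured 56.6 and 46.8 against 36.3 and 51.1, with overlap and a log2 change of −0.26, while MRPL4 (uL29) stood at 0.027. MRPL13 (mL50) measured 232.2 and 301.4 against 147.2 and 204.7 (log2 change −0.61). The values of these genes ran over most of the range of the family, but their standard errors were 0.37 to 0.49.

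MRPL32 (bL32), whose protein is cut by the m-AAA protease of the inner membrane before it enters the ribosome in yeast, measured 132 and 121.4 in wild type against 72.3 and 82.3 in pmt1 pmt2, without overlap (log2 change −0.71 ± 0.34 (SE), limma adjusted p = 0.795). The genes for the protease subunits, AFG3 (also YTA10) and YTA12, had log2 changes of 0.040 and −0.34 with overlapping groups. MRPL25 (mL59), also called AFO1, whose loss was reported to lengthen replicative life span in yeast, measured 297.4 and 248.6 against 199.6 and 151.8, again without overlap (log2 change −0.64). MRPL8 (bL17) measured 420.4 and 356.7 against 216.2 and 258.5, and MRPL37 (mL54) 341.3 and 365.4 against 211.6 and 239.3. In both genes all mutant arrays were lower, with log2 changes of −0.71 and −0.65.

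Others without overlap were MRPL6 (uL6) with a log2 change of −0.58, MRPL27 (mL41) with −0.57, MRPL31 (mL60) with −0.56, MRPL39 (bL33) with −0.51, MRPL15 (mL57) with −0.49 and MRPL36 (bL31) with −0.26. MRPL50 (bL9) measured 42.6 and 35.4 in wild type against 21.5 and 30.6 in pmt1 pmt2, with a mutant mean just under background. Its difference was 1.37-fold with values under background raised to it. In MRPL51 (mL43) and MRPL49 (bL21) the difference in deposited signal came mostly from the arrays numbered 1. MRPL51 measured 174.5 and 206.3 against 87.2 and 193.5, and MRPL49 measured 224.5 and 265 against 121.4 and 265.4. Their log2 changes within number 2 were −0.092 and 0.0022, where the median of all genes was 0.21.

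The remaining large subunit genes had overlapping groups and log2 changes between −0.30 and −0.082. They were MRPL7 (uL5), MRPL22 as above, MRPL44 (mL53), MRPL35 (mL38), MRPL16 (uL16), MRPL33 (uL30), MRPL28 (mL40), MRPL3 (mL44), MRPL23 (uL13) and MRPL9 (uL3). MRPL3, a protein with an RNase III-like fold, measured 321.6 and 260.1 in wild type against 207.6 and 342.8 in pmt1 pmt2, the mutant arrays lying on either side of the wild type pair. MRPL44 was the only member with more than 1 probe set. Its brighter probe set measured 265.9 and 183.7 against 192.7 and 192.4 (log2 change −0.20), and its dimmer one 26.5 and 28.5 against 16.1 and 26.5, with a mutant mean below background, so no change is given for it.

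Ribosomal proteins of the mitochondrion with other symbols (MRP, RSM, IMG and single names) lay on the same side, at a smaller size. All 34 listed were measured, 30 had a log2 change below 0 (47.5% of all genes did), and the median was −0.32. Limma called 0 of them (0 at unadjusted p under 0.05), and 12 had all pmt1 pmt2 arrays below wild type, against 14.7% of all genes. That median was −0.16 without pmt1 pmt2 array 1 and −0.21 without wild type array 1. The lowest p among the 24 of the small subunit belonged to MRP21 (bS21), with 48.6 and 48.3 in wild type against 28.8 and 37.3 in pmt1 pmt2, and RSM18 (bS18), with 185.9 and 180.1 against 134.1 and 122.3. Among the 10 of the large subunit it belonged to MHR1, which also acts in recombination of mitochondrial DNA, with 147.7 and 98.7 against 82.5 and 95.6, and IMG2, with 61.5 and 67.8 against 39.2 and 59.5. In these 4 genes the groups did not overlap.

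Other genes of mitochondrial translation did not move as 1 block. The 9 translation factors had a median log2 change of −0.45, with 8 below 0, 0 called by limma and 0 at unadjusted p under 0.05, and the median was −0.066 without wild type array 1 and −0.27 or −0.29 without pmt1 pmt2 array 1 or 2. The ribosome recycling factor gene RRF1 measured 44.6 and 47 in wild type against 21.6 and 34.2 in pmt1 pmt2, and the initiation factor gene IFM1 34.9 and 39.8 against 21.3 and 28.2, near background. The 17 genes for charging of mitochondrial transfer RNAs had a median of −0.10, led by the tyrosyl synthetase gene MSY1 (123.6 and 67.3 against 54.9 and 61.2) and the aspartyl synthetase gene MSD1 (206.2 and 193.6 against 118.1 and 172.6). The 17 activators of single mitochondrial messages had a median of 0.0082, with PET309, for COX1, at 28.9 and 27.7 against 15.3 and 18.6, the latter under background, and CBP6, for cytochrome b, at 94.6 and 69 against 54.1 and 49.6.

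The 13 genes for ribosome assembly and membrane attachment had a median log2 change of −0.031. Among them MAM33 measured 668.6 and 552.6 in wild type against 302.6 and 461.5 in pmt1 pmt2, and the rRNA methyltransferase gene MRM2 22.1 and 21.1, under background, against 30 and 42.5. The 5 genes for transcription and turnover of mitochondrial RNA had a median of 0.080, with the helicase gene SUV3 at 111.4 and 104.9 against 71 and 91.8 and the mitochondrial DNA packaging gene ABF2 at 661.2 and 511 against 816.2 and 727.4. The 6 regulators had a median of −0.0084 and overlapping groups throughout. HAP5, of the activator of respiratory genes, measured 23 and 29.6 against 29 and 33.6, and PUF3, for the protein that binds messages of nuclear mitochondrial genes in yeast, 18.3 and 7.6 against 12.2 and 7.3, under background. Limma called 0 genes in these lists, in the charging genes and in the activators, with 0 at unadjusted p under 0.05 in each. In 1 or more alternatives the sign of the median turned for the charging genes, the activators, the RNA genes and the regulators, and that of the assembly genes ran from −0.25 to −0.027.

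Transcripts made inside the mitochondrion were also lower in deposited signal. All 8 protein-coding ones had a log2 change below 0, against 47.5% of all genes, and their median was −0.83. Of the 8, 3 were at or below background on all arrays and 5 on at least 1 array. Limma called 0 of them, and 2 were lower at limma's unadjusted p under 0.05, against 1.8% of all genes. The 2 were COX3 and ATP8, of which ATP8 was under background. COX3, of cytochrome c oxidase, measured 98.8 and 152.7 in wild type against 54.8 and 55.7 in pmt1 pmt2 (log2 change −1.15 ± 0.38 (SE), limma adjusted p = 0.541). ATP8, of ATP synthase, and VAR1, the 1 ribosomal protein encoded in the mitochondrial genome of yeast, were under background on all arrays, so no fold is given for them. These transcripts carry no poly(A) tail in yeast, and the labels do not name the primer used for labelling. Their median was −0.12 without wild type array 1, −0.34 without pmt1 pmt2 array 2, −0.28 when probe sets of a gene were averaged and −0.24 with log2 values below 4 raised to 4.

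Nuclear genes of the respiratory chain and ATP synthase, products of which work beside those of the mitochondrial ribosome, lay on the opposite side. Of 35 such genes 34 had a log2 change above 0 and 29 were higher within both array numbers, where 31.9% of all genes were. Their median was 0.51 (0.26 and 0.80 within the numbers), or 0.81 without pmt1 pmt2 array 1 and 0.31 without pmt1 pmt2 array 2. Limma called 0 of the 35, with 2 higher at limma's unadjusted p under 0.05, against 5.37% of all genes. SDH4, of succinate dehydrogenase, measured 692.7 and 727.9 in wild type against 1175.5 and 1531.8 in pmt1 pmt2, and COX9, of cytochrome c oxidase, 448.9 and 431.3 against 701 and 942.8. The median log2 change of the mitochondrial ribosomal protein genes was thus below 0 and that of these genes above 0 within both numbers, a difference described here without a test.

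Cytosolic ribosomal protein genes lay between. Of 81, 77 had a log2 change below 0, against 47.5% of all genes, and their median was −0.16. It was −0.18 and −0.16 on the arrays numbered 1 and 2, but −0.021 and −0.37 relative to the median of all genes there. The median was −0.061, −0.062 or −0.25 without pmt1 pmt2 array 2, wild type array 1 or wild type array 2. Limma called 0 of them, with 0 at unadjusted p under 0.05. RPL7B measured 496.9 and 537.9 in wild type against 336.1 and 278.4 in pmt1 pmt2, and RPS26B 2155.4 and 1393.6 against 1361.5 and 775.7. Many of these genes come in near-identical pairs, so the source of a signal is uncertain for them.

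**Figure D4:**
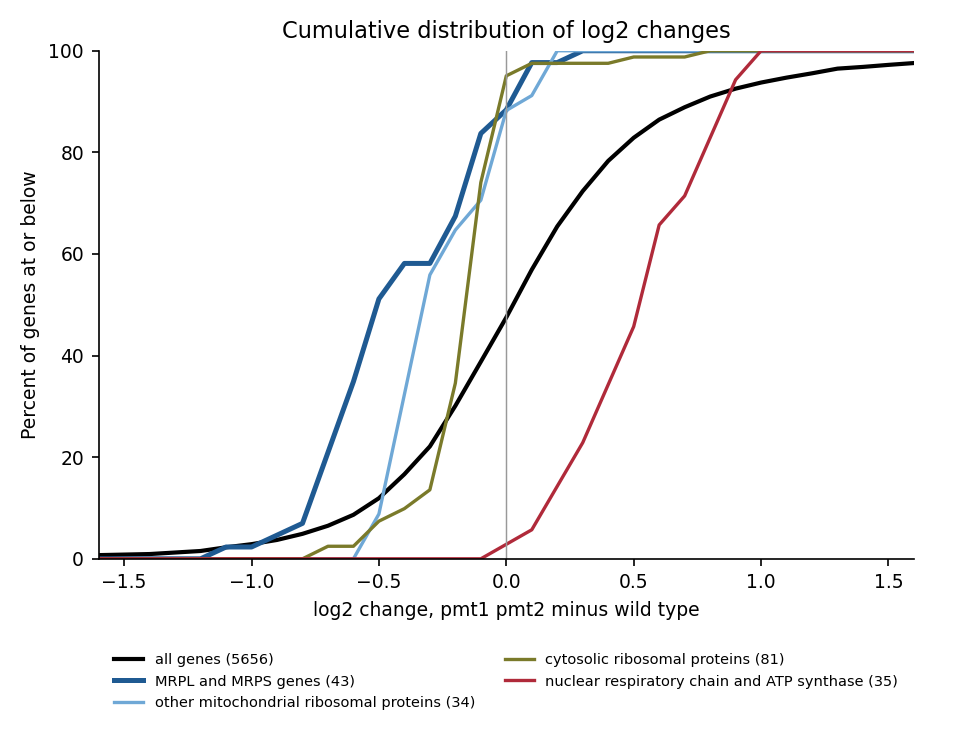
Percent of genes (vertical axis) with a log2 change (pmt1 pmt2 minus wild type) at or below each value (horizontal axis), for all 5656 genes, the 43 MRPL and MRPS genes, the 34 other mitochondrial ribosomal protein genes, the 81 cytosolic ribosomal protein genes and the 35 nuclear respiratory chain and ATP synthase genes. The medians lie at 0.027, −0.51, −0.32, −0.16 and 0.51.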

How the data were processed

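The authors deposited 1 signal (intensity, linear scale) per probe set and array for 9335 probe sets, and the submitters' processing notes name GCRMA without version or settings. Zeros and values below 1 occur and array medians differ, so which summary was deposited is uncertain. Zeros were replaced by 0.1, log2 was taken and the arrays were not scaled further. Of the probe sets 6504 named 1 gene, 328 several and 2503 none, by GEO's platform annotation. The probe set with the highest mean log2 value stood for a gene, and no filter was applied. RefSeq R64 served only for names, systematic ribosomal names and gene order.

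The comparison used limma 3.58.1 under R 4.3.3 with moderated two-sided tests, adjusted over all 5656 genes by Benjamini-Hochberg at a threshold of 0.05. The fits were also run on simulated data with changes larger than that of any member, which does not cover changes of the members' size. The number of arrays limits the precision, and 2 residual degrees of freedom remained, fewer with the array number as a block. Alternatives were quantile normalization, centring, minimum mean log2 values of 4 and 6, a floor of 4, a trend, robust spread, other uses of probe sets, the array number as replicate block, and leaving out each array; the block with centring was added after seeing the data.

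Members and the 11 comparison lists were chosen with earlier results of these data known, so no list was tested. Genes were named by rule: PMT1 and PMT2, members called with or without the block, the 6 lowest and up to 6 highest log2 changes, the 4 smallest p, members below background, and the 2 smallest p of each list. Further members, MRPL11 and MRPL40 among them, and AFG3, YTA12 and VAR1 were named after their values were seen, so that each member is accounted for. No sequences were used here.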

Additional observations from a re-analysis of the deposited data

How the results depend on the processing

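The median log2 change of the 43 members stayed below 0 in all 15 alternatives. Without 1 array in turn it lay between −0.56 and −0.34, that of the large subunit between −0.50 and −0.33 and that of the small subunit between −0.94 and −0.29, while the median of all genes ran from −0.14 to 0.24. It was −0.57 after quantile normalization and −0.61 after centring. The count of members called by limma was 0 in every alternative (0 with a replicate block for array number, where 12 were lower and 0 higher at unadjusted p under 0.05, against 6.98% and 11% of all genes) except the block with centring, chosen after seeing the data. There it was 2: MRPL19 (adjusted p = 0.0383) and MRPL24 (adjusted p = 0.0434), against 2.14% of all genes lower. The numbers pair the arrays in no label. Deviations of same-numbered arrays correlated at 0.65 over all genes and 0.84 over the members, a hint from the data only. The count of all genes called was 22, and 171 with the block, 335 with the block and centring, 14 after centring, 2 after quantile normalization, 38 with a minimum of 6, 0 when each probe set was tested alone (510 at unadjusted p under 0.05) and 1 with a floor of 4. Without 1 array it ran from 0 (pmt1 pmt2 array 1, with 612 at limma's unadjusted p under 0.05) to 62 (wild type array 1). Of 164 values of the 11 members named by rule, 20 changed sign, all in MRPS17 and the 5 members with a log2 change above 0. Of these, 10 came without 1 array, 2 after quantile normalization and 8 under centring, with or without the block, which shifts all genes alike and says nothing of single members.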

Other observations

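Genes next to the members on the chromosome were measured in 82 cases. Their median log2 change was 0.043, with 38 below 0, against medians of 0.027 for all genes and −0.51 for the members themselves. In 12 of the 82 all pmt1 pmt2 arrays lay below wild type, where 14.7% of all genes did.

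The arrays numbered 1 and 2 also differed for single members in the same way in both groups. MRPS16 and MRPS17 were at least 2.5-fold brighter on the arrays numbered 1 in wild type and in pmt1 pmt2, as were 1.94% of all genes. In wild type 16 of 43 members, and in pmt1 pmt2 31 of 43, were brighter on the array numbered 2. The actin probe set ratio differed between the same numbers (2.99 and 3.15 against 1.38 and 1.32), and its part in these signals was not tested.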
